A study of Zea mays with 137 samples.

Results

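In maize leaves, the long arm of chromosome 1 (1L) and the short arm of chromosome 5 (5S) were varied in opposite directions in the same plants. One combination, trisomy 1L+monosomy 5S (tri1L_mono5S), carried 3 copies of 1L and 1 copy of 5S. The reverse combination, monosomy 1L+trisomy 5S (mono1L_tri5S), carried 1 copy of 1L and 3 copies of 5S. Each was set against the same diploid with 2 copies of both arms, and the combinations were then set against each other gene by gene. 1L was taken as the genes of chromosome 1 that start at or after position 164178026 of the W22 coordinates in the deposited table, and 5S as the genes of chromosome 5 that start before position 83811406. By these limits 3167 genes lay on 1L, 2083 on 5S and 35401 elsewhere on chromosomes 1 to 10, of 41448 genes in the table. Genes were kept where the mean of a combination and the diploid mean summed to at least 1 FPKM (fragments per kilobase of transcript, scaled for library size). This left 20798 genes for tri1L_mono5S and 20454 for mono1L_tri5S, and 20126 passed in both.

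All plants were of the inbred line W22 and were sampled as leaf after 45 days in a greenhouse. The sample list holds 3 diploid, 4 tri1L_mono5S and 4 mono1L_tri5S plants, which are 11 of the 137 plants of the study, together with 4 plants of double trisomy 1L+5S (tri1L_tri5S) and 1 of trisomy 1L+tetrasomy 5S (tri1L_tetra5S). The arms were varied with the B-A translocations TB-1La and TB-5Sc, in which an A chromosome arm is joined to the supernumerary B chromosome, so the aneuploids carried B segments that a normal diploid lacks. According to the karyotype list, 1 of the 3 diploid controls had a small B fragment and its diploid state was marked with a query. The deposited table gives 1 mean per group and gene, so neither a spread between plants nor a test could be obtained, and every value below describes group means. The FPKM over chromosomes 1 to 10 summed to 626856 in the diploid, 600075 in tri1L_mono5S and 612054 in mono1L_tri5S, and the depth of the libraries is not known from these values. The diploid sum includes 4001 and 3489 FPKM from 2 loci that had no estimate in mono1L_tri5S, the first of them also none in tri1L_mono5S.

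A gene whose transcript level follows its copy number shows a dosage effect, whereas a gene whose level stays near that of the diploid despite a changed copy number shows dosage compensation. Genes on the varied arm are referred to as *cis* and those elsewhere as *trans*. *Trans* genes may move in the same direction as the varied arm or in the opposite direction, the inverse effect, which is common in plant and fly aneuploids. The arms 1L and 5S are in large part homoeologous, that is, they descend from the same ancestral chromosome through the ancient genome duplication of maize, so the opposite changes raise one set of duplicates while lowering the other.

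In tri1L_mono5S the genes of 1L were raised and those of 5S were lowered. Over 1763 genes of 1L the median ratio to the diploid was 1.55, and the median level was 14.7 FPKM against 9.46 FPKM in the diploid. Of these genes 81.8% were above the diploid, 958 (54.3%) were at least 1.5-fold higher and 121 (6.86%) were at least 1.5-fold lower. Over all genes of chromosomes 1 to 10 the shares past these limits were 21% and 18.5%. The 1135 genes of 5S had a median ratio of 0.522, with median levels of 4.83 FPKM against 9.55 FPKM. At least 1.5-fold lower were 844 of them (74.4%), and 41 (3.61%) were at least 1.5-fold higher. The median of 1L was thus near the ratio of 1.5 given by 3 copies over 2, and that of 5S near 0.5. FPKM is a relative measure, with a library scaling not given in the sources, so neither these ratios nor those below give the level per genome. By droplet digital PCR the study estimated a smaller transcriptome in tri1L_mono5S than in the diploid, and a larger one in mono1L_tri5S. In bulk leaf, a change in RNA per cell and a change in the make-up of cells cannot be told apart.

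In mono1L_tri5S the directions were exchanged. The 1675 genes of 1L had a median ratio of 0.462, with 4.60 FPKM against 10.2 FPKM in the diploid. Of these, 1318 genes (78.7%) were at least 1.5-fold lower, beside 28.1% of all genes, and 29 (1.73%) were at least 1.5-fold higher, beside 15.1% of all genes. The 1178 genes of 5S had a median ratio of 1.30, with 11.6 FPKM against 8.91 FPKM, and 450 of them (38.2%) were at least 1.5-fold higher. The median of trisomic 5S lay below the copy ratio of 1.5, and that of monosomic 1L below 0.5. In the same comparison the 17601 genes outside both arms had a median of 0.903, and in tri1L_mono5S the 17900 genes outside both arms had a median of 1.05. Divided by these *trans* medians, the *cis* medians were 1.48 for trisomic 1L, 0.499 for monosomic 5S, 0.512 for monosomic 1L and 1.44 for trisomic 5S. Both comparisons use the same diploid mean, so an error in that mean enters both.

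**Figure D1:**
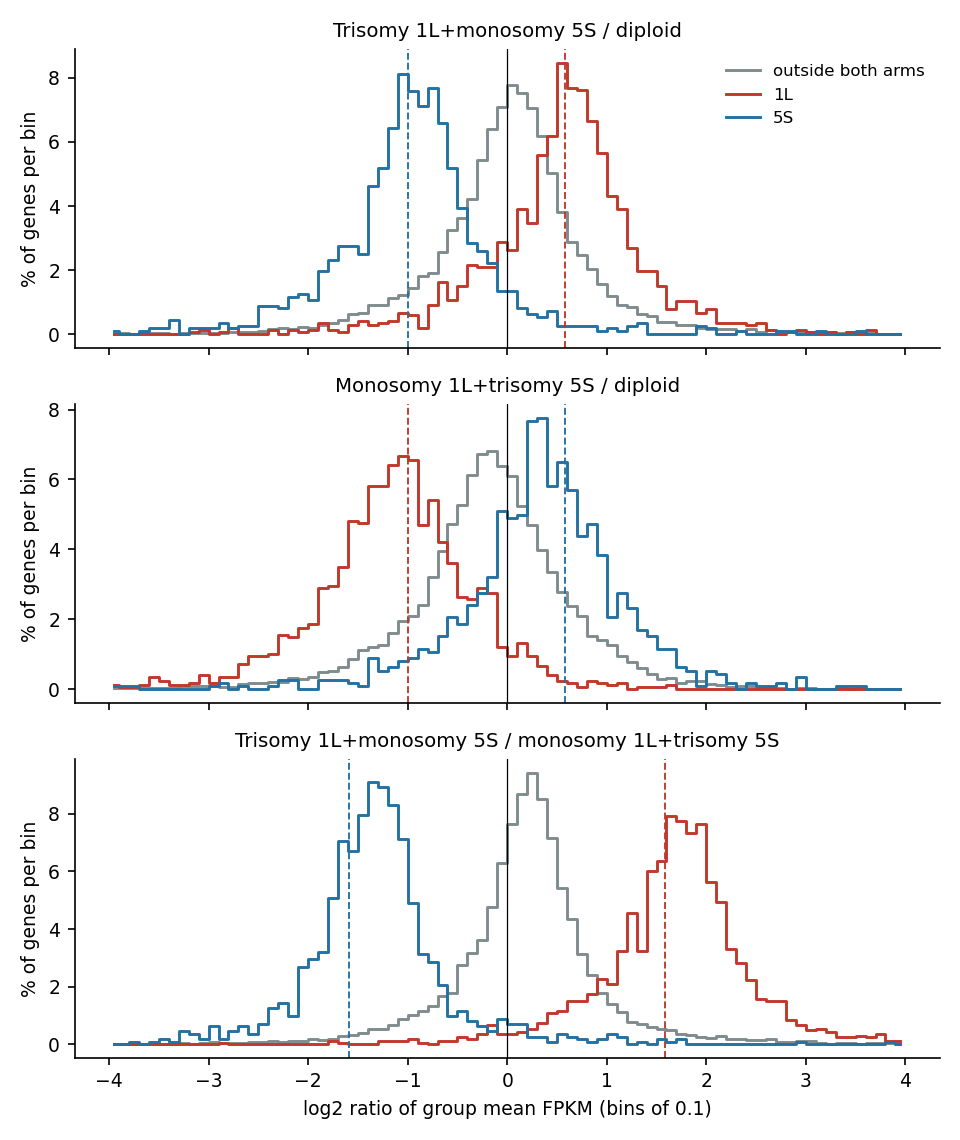
Distribution of the log2 ratio of group mean FPKM over genes (x axis, bins of 0.1), as the percentage of the genes of each class (y axis), for 1L (red), 5S (blue) and genes outside both arms (grey). Only genes that passed the filter in both combinations are drawn. Dashed lines mark the copy number ratios and the solid line marks no change; in the lowest panel the 3 classes stand apart, with medians of 3.32 (1L), 0.397 (5S) and 1.16 (*trans*), all to the right of the line for their copy ratio.

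Individual *cis* genes were spread widely around these medians. The middle 50% of the log2 ratios ran from 0.22 to 1.02 for 1L and from -1.32 to -0.57 for 5S in tri1L_mono5S, and from -1.56 to -0.67 for 1L and from -0.03 to 0.85 for 5S in mono1L_tri5S. Within 10% of the copy ratio lay 378 genes (21.4%) of trisomic 1L, 236 (20.8%) of monosomic 5S, 309 (18.4%) of monosomic 1L and 200 (17.0%) of trisomic 5S. How many *trans* genes lay as close to these copy ratios was not counted, so the shares have no background here. Within 10% of the diploid level, where full compensation would place a gene, lay 140 genes (7.94%) of trisomic 1L, 37 (3.26%) of monosomic 5S, 64 (3.82%) of monosomic 1L and 163 (13.8%) of trisomic 5S. Of the *trans* genes, 20.8% in tri1L_mono5S and 17.8% in mono1L_tri5S lay as close to the diploid, so the share of trisomic 5S was not far below that background. A trisomic gene is closer to the diploid level than a monosomic gene on the log scale at strict dosage, so these shares do not compare compensation between trisomy and monosomy.

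The combinations were then compared directly, which leaves the diploid out of the ratio and sets 3 copies against 1. The 1664 genes of 1L with a value had a median tri1L_mono5S over mono1L_tri5S of 3.32, with median levels of 16.3 and 4.67 FPKM. The 1121 genes of 5S had a median of 0.397, or 2.52-fold lower, with 4.90 and 12.4 FPKM. The 17336 genes outside both arms had a median of 1.16. Relative to that *trans* median, 1L was 2.88-fold higher and 5S was 2.91-fold lower, so that both arms came to a similar distance from the remainder of the genome, slightly below the 3-fold of strict dosage.

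By the direct ratio few genes of either arm stood at the same level in both combinations. On 1L, 1023 genes (61.5%) were at least 3-fold higher in tri1L_mono5S, 405 (24.3%) were 2- to 3-fold higher, 118 (7.09%) were 1.5- to 2-fold higher, 102 (6.13%) lay within 1.5-fold and 16 (0.962%) were at least 1.5-fold against the dosage of the arm. On 5S, 340 genes (30.3%) were at least 3-fold lower in tri1L_mono5S, 528 (47.1%) were 2- to 3-fold lower, 145 (12.9%) were 1.5- to 2-fold lower, 81 (7.23%) lay within 1.5-fold and 27 (2.41%) went against dosage. All genes of chromosomes 1 to 10 were at least 1.5-fold higher in 26.2% of cases and at least 1.5-fold lower in 14.2%. The gap between the arms in the class of 3-fold and more depended on the scale. After division by the *trans* median, 752 genes of 1L (45.2%) and 513 of 5S (45.8%) fell in it. On that scale 144 genes of 1L (8.65%) and 62 of 5S (5.53%) lay within 1.5-fold of no difference, and 24 and 21 genes went against dosage.

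Double trisomy 1L+5S, measured in the same table, separated the direct contrast into its arms. Between tri1L_tri5S and mono1L_tri5S the copies of 1L are 3 and 1 and those of 5S are 3 in both. Here 1659 genes of 1L had a median ratio of 2.93, the 1118 genes of 5S a median of 1.01 and the 17212 *trans* genes a median of 1.01. Between tri1L_mono5S and tri1L_tri5S the copies of 5S are 1 and 3 and those of 1L are 3 in both. In that contrast 5S had a median of 0.391 (2.56-fold lower), 1L a median of 1.14 and the *trans* genes a median of 1.14. The unvaried arm thus took the *trans* median in each contrast. The *trans* displacement of the direct contrast appeared in the step that changed 5S at 3 copies of 1L, and hardly in the step that changed 1L at 3 copies of 5S. Over the diploid, however, the *trans* median was 0.909 in tri1L_tri5S and 0.903 in mono1L_tri5S, and 1.05 in tri1L_mono5S. The group with 1 copy of 5S was thus the nearest to the diploid, and what set the displacement was not tested. For scale, the *trans* medians of the 1L+5S diploid over the 8 other diploids ran from 0.950 to 1.12, in separately normalised tables. Whether library scaling set part of the *trans* displacement was not tested. Divided by the *trans* medians, the *cis* ratios were 2.90 for 1L and 0.342 for 5S.

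**Figure D2:**
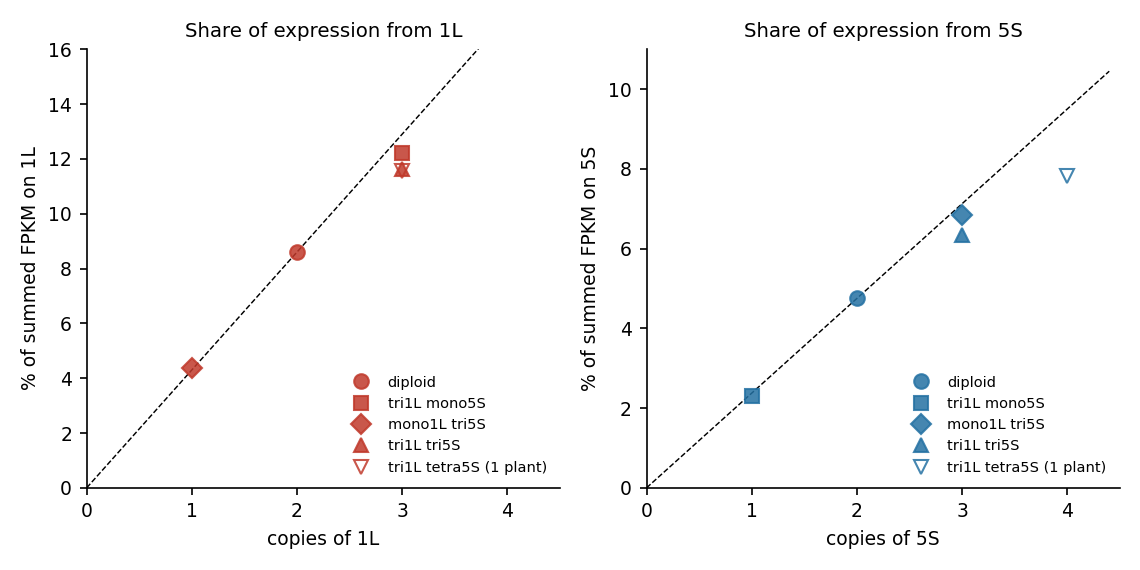
Percentage of the FPKM summed over chromosomes 1 to 10 that came from 1L (left) and 5S (right) against the copy number of the arm, 1 point per group mean; the dashed line runs through 0 and the diploid. At 1 copy both arms lay close to the line, and at 3 or 4 copies the points lay below it. The line takes no account of how the changed arms alter the total, so a point below it does not by itself show compensation.

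The share of summed FPKM gave the same order by copy number. From 1L came 4.38% in mono1L_tri5S, 8.60% in the diploid, 12.2% in tri1L_mono5S, 11.6% in tri1L_tri5S and 11.6% in tri1L_tetra5S. From 5S came 2.29% in tri1L_mono5S, 4.75% in the diploid, 6.83% in mono1L_tri5S, 6.35% in tri1L_tri5S and 7.82% in tri1L_tetra5S. Relative to the diploid share, monosomic arms stood at 0.510 (1L) and 0.483 (5S), and the trisomic arms of the opposite combinations at 1.42 (1L) and 1.44 (5S). In the diploids of the 8 other pairs, whose tables were normalised separately, 1L gave 7.87 to 8.62% and 5S gave 4.41 to 4.73%, and no aneuploid group fell within the range of an arm whose copies it had changed. The diploid of 1L+5S itself was inside the first range and just above the second. Shares are bound to a common total, so a rise of one arm lowers the others and also limits the rise of its own share. One locus outside both arms at 3092 to 4839 FPKM in other diploids was listed at 0 in mono1L_tri5S and 1 more was listed at 0 in both combinations, because the table marks them as not estimated for the high number of reads (status HIDATA). Without these 2 loci, an alternative chosen after the data were seen, the shares of 1L and 5S in tri1L_mono5S were 12.3% and 2.31%. Those of the diploid became 8.70% and 4.81%, and those of mono1L_tri5S did not change.

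Along 1L and 5S every window moved with the dosage of its arm. In the direct ratio the log2 window medians of 1L varied more than those outside the arms (SD 0.086 against 0.056). In tri1L_mono5S over the diploid they varied less (0.038 against 0.069). The 8 windows of 20 Mb on 1L had medians from 1.498 to 1.63 in tri1L_mono5S over the diploid, from 0.440 to 0.495 in mono1L_tri5S over the diploid, and from 2.93 to 3.49 between the combinations. The 5 windows on 5S ran from 0.512 to 0.538, from 1.22 to 1.38 and from 0.375 to 0.415. The 101 windows elsewhere ran from 0.927 to 1.23, from 0.756 to 1.02 and from 1.02 to 1.31, so no window outside the arms reached the level of one inside. The *trans* difference between the combinations was spread over the genome, with medians per chromosome of 1.11 (the long arm of chromosome 5) to 1.18 (chromosome 6).

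**Figure D3:**
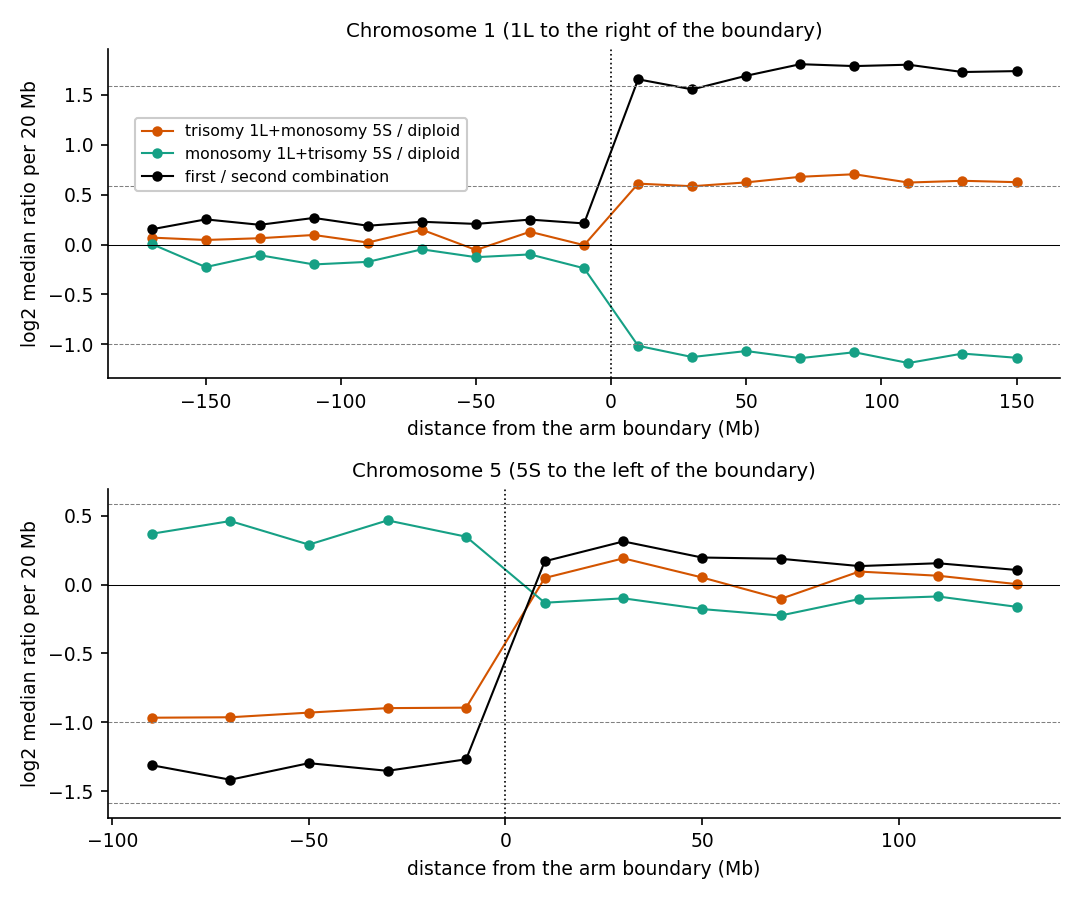
Log2 median ratio in windows of 20 Mb (y axis) against the distance of the window from the arm boundary in Mb (x axis), for chromosome 1 (top) and chromosome 5 (bottom). Dashed lines mark the copy number ratios; all 3 ratios step at the boundary (dotted), and 1L in the direct ratio holds between 2.93 and 3.49 over its length.

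The step in expression lay close to the limits used for the arms. The position that best split the direct ratios of chromosome 1 lay 0.770 Mb inside 1L, and that of chromosome 5 lay 0.517 Mb outside 5S. The 20 kept genes just inside 1L had a median direct ratio of 3.15 and the 20 just outside a median of 1.26. For 5S these were 0.409 inside and 1.13 outside. At the expression limit, the 31 genes of 1L with a sum of 1 to 1.25 FPKM had a median of 1.503 in tri1L_mono5S and the 57 genes with 0.75 to 1 FPKM a median of 1.36. For 5S, 39 genes just inside gave 0.626 and 30 just outside gave 0.599. In mono1L_tri5S the medians differed more across the limit, with 0.469 inside and 0.636 outside for 1L, and 1.27 inside and 1.55 outside for 5S. A filter that used only the 8 other diploid means, and so none of the values compared, gave direct medians of 3.33 for 1L, 0.397 for 5S and 1.15 for *trans* genes.

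The level of a gene, taken from the 8 other diploids, bore on the spread more than on the median. From the lowest to the highest of 4 classes of equal size (limits of 3.14, 9.16 and 22.2 FPKM) the direct medians of 1L were 3.33, 3.49, 3.43 and 3.11. Those of 5S were 0.469, 0.413, 0.396 and 0.373, and those of *trans* genes were 1.19, 1.20, 1.17 and 1.08. Relative to *trans* genes of the same class, 1L was at 2.79, 2.91, 2.92 and 2.89 and 5S at 0.393, 0.344, 0.338 and 0.346, with the widest departure from the other classes in the lowest class of 5S. The width of the middle 50% on 1L fell from 1.32 in the lowest class to 0.54 in the third class on the log2 scale, and was 0.65 in the highest. Longer loci had higher direct ratios in all 3 classes. From the shortest to the longest of 4 classes of locus length the median rose from 3.01 to 3.56 on 1L, from 0.360 to 0.408 on 5S and from 1.08 to 1.19 in *trans*.

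The genes outside both arms were modulated in both directions. In tri1L_mono5S, 3361 of 17900 (18.8%) were at least 1.5-fold higher than the diploid and 2884 (16.1%) were at least 1.5-fold lower. In mono1L_tri5S these were 2616 of 17601 (14.9%) and 4313 (24.5%). Between the combinations, 3689 of 17336 (21.3%) were at least 1.5-fold higher in tri1L_mono5S and 1829 (10.6%) were at least 1.5-fold lower. Over all genes of chromosomes 1 to 10 the higher and lower shares were, in the same order, 21% and 18.5%, 15.1% and 28.1%, and 26.2% and 14.2%. The *trans* splits moved with the scaling. After division by the *trans* median, higher genes made up 45.7% of those past 1.5-fold between the combinations instead of 66.9%, in mono1L_tri5S over the diploid 50.4% instead of 37.8%, and in tri1L_mono5S over the diploid 47.8% instead of 53.8%. The direction with more genes thus turned round in all 3 ratios. The *trans* medians themselves were shifted by -0.15 (mono1L_tri5S over the diploid) and 0.21 (direct contrast) on the log2 scale.

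The *trans* ratios were spread more widely between the diploid and the 3 groups with several aneuploid plants than among these groups. This holds for the spread and not for the medians, since the *trans* median of tri1L_mono5S was nearer to the diploid (1.05) than to mono1L_tri5S (1.16) or tri1L_tri5S (1.14). The middle 50% of *trans* genes spanned 0.77 log2 units in tri1L_mono5S over the diploid, 0.86 in mono1L_tri5S and 0.78 in tri1L_tri5S. Between the aneuploid groups it spanned 0.64 in the direct contrast, 0.53 for the change of 1L and 0.51 for the change of 5S. When the diploid of 1L+5S was divided by each of the diploids of the 8 other pairs, the span was 0.43 to 1.01, and 17.5 to 44.9% of the *trans* genes were past 1.5-fold. Both lower ends came from the pair 1S+9L alone, and the next values were 0.62 and 24.7% (4L+5L). The spans of 0.53 and 0.51 between aneuploid groups were thus inside the range only through 1S+9L. Against the same 8 diploids the median of the spans was 0.80 for the diploid of 1L+5S, 0.75 for tri1L_mono5S and 0.72 for mono1L_tri5S. The shares past 1.5-fold against their own diploid were 34.9% in tri1L_mono5S and 39.4% in mono1L_tri5S, within the range between diploids of different pairs. Those diploids came from 2 to 4 plants of other crosses in separately normalised tables, and the cross and the normalisation cannot be told apart in them.

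**Figure D4:**
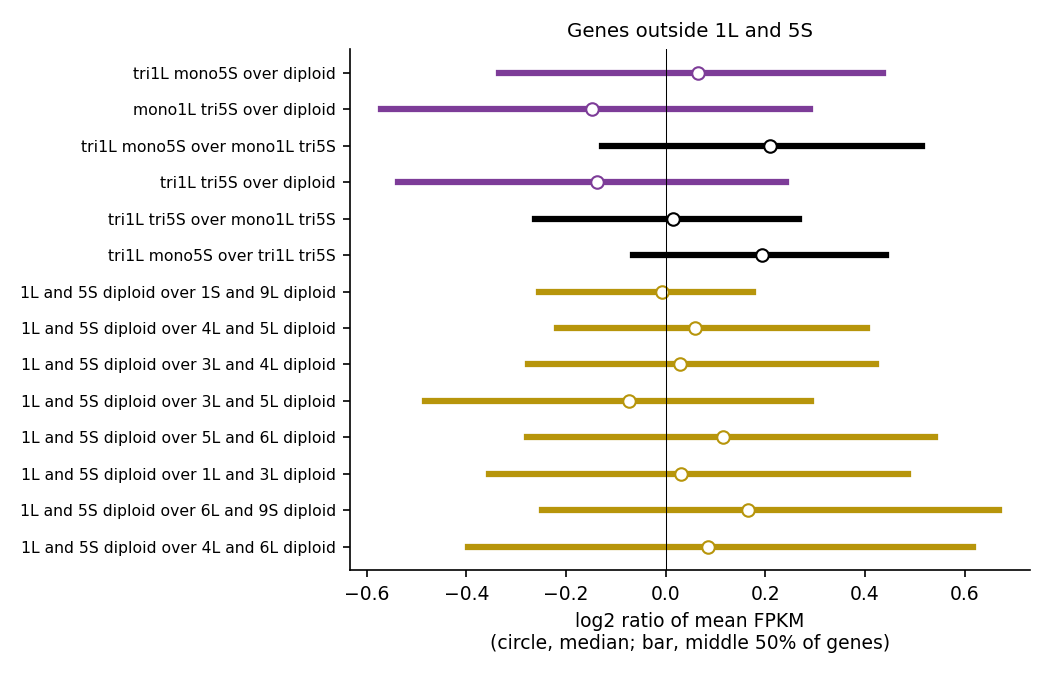
Log2 ratio of group mean FPKM for genes outside 1L and 5S, with the median as a circle and the middle 50% of genes as a bar. Aneuploids over their diploid are purple, ratios between aneuploid groups are black, and the diploid of 1L+5S over the diploids of the 8 other pairs is ochre. The ochre bars span 0.43 to 1.01, a range that takes in the spans of all purple and black bars. Its lower end comes from the pair 1S+9L alone, and the next span is 0.62 (4L+5L).

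Names could be given to the genes of the droplet digital PCR panel, 10 in all. Of these, 3 lie on the varied arms. Zm00004b004532 on 1L (chr1:258303340-258312850) encodes a WD repeat protein of the MSI1 family, whose members bind histones. It was at 26.0 FPKM in the diploid, 37.8 in tri1L_mono5S and 11.0 in mono1L_tri5S, ratios of 1.45 and 0.423 to the diploid and 3.44 between the combinations, close to the median of its arm. In tri1L_tri5S and tri1L_tetra5S, also with 3 copies of 1L, it was at 24.6 and 22.3 FPKM, not above the diploid. The 8 other diploids ranged from 17.8 to 23.3 FPKM, below the diploid of 1L+5S and apart from both opposite combinations. Zm00004b003707 on 1L (chr1:218941830-218949370) encodes a 1-phosphatidylinositol-3-phosphate 5-kinase, an enzyme that phosphorylates a membrane lipid of endosomes. It was at 20.3 FPKM in the diploid, 20.0 in tri1L_mono5S and 15.9 in mono1L_tri5S, and its direct ratio of 1.26 was lower than those of all but 4.32% of the 1L genes. With the same 3 copies of 1L it was at 45.8 FPKM in tri1L_tri5S and 53.2 in tri1L_tetra5S, so its level did not go with the copies of 1L alone. The 8 other diploids ranged from 15.7 to 48.0 FPKM for this gene, which takes in all these levels except that of tri1L_tetra5S.

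On 5S lies glk8 (Zm00004b011191, chr5:6546832-6549137), which encodes a transcription factor of the GOLDEN2-like class. Its mean was 33.4 FPKM in the diploid, 20.3 in tri1L_mono5S, 31.8 in mono1L_tri5S, 38.6 in tri1L_tri5S and 68.6 in tri1L_tetra5S. The ratio was 0.608 with 1 copy and 0.954 with 3 copies in the opposite combinations, and the combinations differed 1.57-fold, less than the 2.52-fold of the median 5S gene. Other diploids ranged from 22.8 to 70.5 FPKM.

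The other 7 genes of the panel lie outside both arms. The gene of photosystem II reaction centre W (Zm00004b018833, chromosome 3), a chloroplast protein expected in leaf, was abundant in all groups, with 736 FPKM in the diploid, 534 in tri1L_mono5S and 1167 in mono1L_tri5S. It was the only gene of the panel at least 1.5-fold higher in mono1L_tri5S than in tri1L_mono5S outside the arms, by 2.19-fold. Another 2 genes ran the other way. The peroxidase gene px5 (Zm00004b030088, chromosome 6) was at 210 FPKM in the diploid, 374 in tri1L_mono5S and 148 in mono1L_tri5S. The cysteine protease gene ccp1 (Zm00004b013771, on the long arm of chromosome 5) was at 1017, 1400 and 815 FPKM. Between the combinations these were 2.53- and 1.72-fold apart. The remaining 4 were closer together, with direct ratios of 0.974 for sat4 (Zm00004b000264), 1.16 for the annexin gene (Zm00004b008969), 1.34 for ZmMed12b (Zm00004b034591), a subunit of the Mediator complex of transcription, and 1.38 for the SNF7-family gene (Zm00004b032873), of the membrane-sorting ESCRT machinery. The 8 other diploids spanned 132 to 476 FPKM for px5, 652 to 1180 for ccp1 and 601 to 1465 for photosystem II reaction centre W. The value of ccp1 in tri1L_mono5S was above that span, that of photosystem II reaction centre W in tri1L_mono5S was below it, and the others of these 3 genes were inside.

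**Figure D5:**
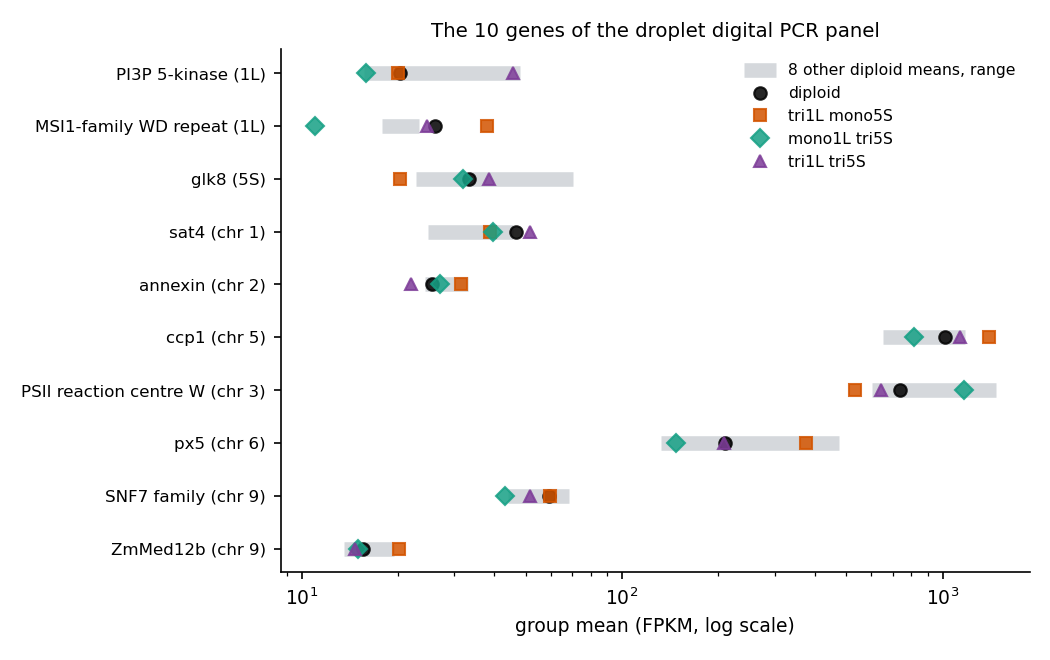
Group mean FPKM (log x axis) of the 10 genes of the digital PCR panel in the diploid (circle), tri1L_mono5S (square), mono1L_tri5S (diamond) and tri1L_tri5S (triangle), with the range of the 8 other diploid means as a grey bar. The MSI1-family gene on 1L separated into 11.0, 26.0 and 37.8 FPKM by copy number in the opposite combinations and the diploid. In tri1L_tri5S, also with 3 copies of 1L, it was at 24.6 FPKM. The kinase gene on 1L stood at 15.9 to 20.3 FPKM in the opposite combinations and the diploid.

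Among the 10040 genes outside both arms with at least 5 FPKM in all 3 groups, the most different between the combinations were known by identifier only. Zm00004b039184 (chromosome 10) was at 48.9 FPKM in the diploid, 447 in tri1L_mono5S and 12.7 in mono1L_tri5S, a direct ratio of 35.2. Zm00004b007161 (chromosome 2) was at 14.7, 511 and 14.8 FPKM, a ratio of 34.4. At the other end, Zm00004b020492 (chromosome 4) was at 53.5, 10.8 and 112 FPKM, 10.3-fold higher in mono1L_tri5S, and Zm00004b021723 (chromosome 4) was at 36.0, 20.5 and 192 FPKM, 9.34-fold higher. All 4 varied among the other diploids as well. The spans were 4.24 to 269 FPKM, 3.77 to 156 FPKM, 21.2 to 106 FPKM and 39.5 to 148 FPKM in the order given. These genes were picked for their size of difference, and whether 1 plant set a mean cannot be seen from the table.

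The translocations carry B segments, so the B chromosome genes were examined as well. Of 686 such genes, 119 reached 1 FPKM in at least one combination. A division chosen after the values were seen gave 65 genes that start between 13.9 and 37.3 Mb of the B sequence and 54 that start between 38.7 and 106 Mb. In the first segment the FPKM summed to 19.9 in the diploid, 389 in tri1L_mono5S and 118 in mono1L_tri5S. In the second segment the sums were 31.3, 268 and 264 FPKM. Both the genes and the division were chosen on these values, so the sums are a description only, and which translocation a segment belongs to was not tested. Effects of B segments and of 1L and 5S on *trans* genes cannot be told apart. In the first segment the diploids of 5 other pairs summed to 3.13 to 4.31 FPKM, below the 19.9 FPKM of the 1L+5S diploid, in which 1 control had a B fragment by its karyotype. The diploids of the other 3 pairs, 1L+3L, 5L+6L and 6L+9S, summed to 72.8 to 156 FPKM. In the second segment the same 5 pairs summed to 20.4 to 35.7 FPKM, which takes in the 31.3 FPKM of the 1L+5S diploid. The other 3 pairs summed to 83.1 to 181 FPKM there.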

How the data were processed

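Leaf RNA of 45-day-old W22 plants was sequenced by the study as rRNA-depleted libraries. Before deposit the authors ran fastp, STAR (reference W22 with the B sequence, organelle reads excluded) and Cuffdiff, which gave 1 table per pair of arms. Program versions and library scaling are not given in the sources used here. The deposited tables hold the authors' FPKM, 1 mean per group and gene, so counts, depth and plant-to-plant spread were not analysed here, and the number of plants is that of the sample list. The authors' fold changes, test statistics, p-values and q-values were not used.

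Groups were taken from the sample titles. Ratios of means were formed without a pseudocount for genes with a sum of at least 1 FPKM, in both comparisons for the direct contrast, where 5 genes at 0 in both combinations had no ratio. The locus without an identifier (1), 111 genes on unplaced sequence and the B genes were left out of the medians. A fold of 1.5 counted as past the limit. Windows of 20 Mb needed 20 genes. The best split of chromosomes 1 and 5 minimised the absolute log2 distance to dosage. Named genes were the digital PCR panel and the 2 highest and 2 lowest direct ratios outside the arms with at least 5 FPKM in all 3 groups. The gene reference at hand is of line B73 and matched 0 identifiers, so pathway and marker lists and sequences were not used. Members and lists were chosen with earlier results of these data known. The alternatives were other filters on low values, pseudocounts of 0.1 and 1 FPKM, genes within 10 Mb of a boundary left out, test status OK only, division by the *trans* median, a 2-fold limit, weighting by locus length and the 100 most abundant genes left out. The steps were tested on simulated data. Python 3.11.15, numpy 2.4.6, pandas 2.3.3 and matplotlib 3.10.9 were used.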

Additional observations from a re-analysis of the deposited data

Results flagged for a closer look

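Genes of the B chromosome lie outside the comparison of 1L and 5S. The summed FPKM of the chosen genes was above that of the diploid in both combinations, though not that of every gene. These genes were chosen for reaching 1 FPKM in a combination, so a sum above the diploid follows in part from that choice. The 65 genes of the first B segment summed to 388.61 FPKM in tri1L_mono5S and 118.07 FPKM in mono1L_tri5S, against 19.9 FPKM in the diploid. The 54 genes of the second segment summed to 268.382 FPKM in tri1L_mono5S and 264.492 FPKM in mono1L_tri5S, against 31.3 FPKM in the diploid. In the diploids of 1L+3L, 5L+6L and 6L+9S the first segment summed to 72.8 to 156 FPKM, and in those of the remaining pairs to 3.13 to 4.31 FPKM. For the second segment these ranges were 83.1 to 181 FPKM and 20.4 to 35.7 FPKM, so the 31.3 FPKM of the 1L+5S diploid lay inside the lower one.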

How the results depend on the processing

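With 1 mean per group, no plant could be left out in turn. No paired analysis was possible because the tables hold group means and no values of single plants. Medians were taken as moved where the change exceeded the SD of the medians between the diploid of 1L+5S and the 8 other diploids, counts where they changed more than 1.5 times, and shares where they changed by more than the SD over the diploids. By this, 73 of 84 medians, 44 of 60 counts and 9 of 18 shares were within the limit, and no median passed to the other side of 1. Which direction held more *trans* genes past 1.5-fold did change. In tri1L_mono5S over the diploid, 3361 higher and 2884 lower became 2959 and 3237 after division by the *trans* median. In mono1L_tri5S over the diploid, 2616 and 4313 became 3390 and 3331. A pseudocount of 1 FPKM drew the medians towards 1, to 1.47 (1L) and 0.589 (5S) in tri1L_mono5S over the diploid, 0.541 (1L) in mono1L_tri5S over the diploid, and 2.80 (1L) and 0.462 (5S) between the combinations. Division by the *trans* median gave 0.512 (1L), 1.44 (5S) and, by construction, 1 (*trans*) in mono1L_tri5S over the diploid, and 2.88, 0.344 and 1 between the combinations, where the higher *trans* genes fell from 3689 to 2274 and the lower ones rose from 1829 to 2700. At 2-fold, the higher and lower *trans* genes were 1644 and 1454 in tri1L_mono5S, 1236 and 2163 in mono1L_tri5S, and 1524 and 878 between the combinations. At a sum of 10 FPKM, where fewer genes enter, they were 1541 and 1658, again with lower genes ahead in tri1L_mono5S, 1309 and 2542, and 1690 and 832. With no filter, where more genes enter, 4086 were higher in mono1L_tri5S, and 5627 were higher and 3496 lower between the combinations. Weighted by locus length, the diploid shares were 7.97% (1L) and 5.45% (5S), that of 5S was 2.72% in tri1L_mono5S and 8.12% in mono1L_tri5S. Without the 100 most abundant genes, 5S gave 5.68% in the diploid, 2.71% in tri1L_mono5S and 8.54% in mono1L_tri5S, and 1L gave 12.9% in tri1L_mono5S and 4.75% in mono1L_tri5S.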
